A study of Homo sapiens with 6 samples.

Results

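Potassium channel genes were examined here in LNCaP cells, an established androgen-responsive line from a human prostate cancer metastasis. They were taken as all genes whose symbol begins with KCN and that have a probe set naming no other gene. There were 97 such genes among 19775 genes on the array, read from their brightest probe set, and 46 of them (13728 of all genes) reached a mean signal of 20 over the 6 arrays. A further 31 KCN symbols of the gene table were not analysed here. Before treatment the cells were kept for 3 days without phenol red and with 10% serum freed of steroids by charcoal and dextran. Of the 6 cultures, 3 were exposed for 48 h to 100 nM dihydrotestosterone (DHT), an androgen that binds the androgen receptor tightly, and 3 were controls. The sources used here do not name a vehicle for the controls. All groups are the same single cell line, and the arrays of a group are called biological replicates, and no label says whether the cultures were set up on different days, so p-values cover only the spread between these arrays, which may be partly technical.

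Potassium channels let potassium leave or enter cells along its gradient and so set the membrane potential. Their pore-forming subunits fall into families. Voltage-gated Kv channels open on depolarisation, the large-conductance BK channel encoded by KCNMA1 opens on depolarisation and on a rise of intracellular calcium, Kir channels pass current mainly inward, and K2P channels carry a resting leak. Auxiliary subunits alter gating or surface expression. LNCaP cells are known to carry BK current.

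The signals are MAS5 values in arbitrary units on a linear scale, and differences are DHT minus control on log2(signal + 16), a scale that understates changes of dim genes. Signals of different probe sets cannot be set against each other as amounts of transcript. Each array had been scaled to the same trimmed mean of 100.03 (2% trimmed at both ends), so every direction is relative to the average transcript. As a check of the treatment labels, the androgen-induced genes KLK2, TMPRSS2, KLK3 and FKBP5 rose by 4.07, 3.08, 2.04 and 0.72 on the log2 scale; FKBP5 missed with spike scaling (0.20) and as the mean of its probe sets (0.31). All 6 analysed luminal prostate markers reached a signal of 20, and their summed signal was 16102 to 16834 with DHT and 7264 to 7829 in controls. That difference lies in KLK3 and TMPRSS2, and the other 4 markers summed to 4881 to 5530 with DHT and 5106 to 5140 in controls. Of these 4, KRT8 (-0.43; limma adjusted p = 0.00459) and HOXB13 (-0.37; limma adjusted p = 0.0173) fell, KRT18 rose (0.23; limma adjusted p = 0.0413) and FOLH1 did not pass. HOXB13 missed without control replicate 3, DHT replicate 1 or DHT replicate 3 (limma adjusted p = 0.0590 to 0.0735), and KRT18 passed in 1 of 6 settings with 1 array left out and had -0.32 with spike scaling. Of markers of other cell types, 1 of 4 basal, 2 of 7 neuroendocrine, 5 of 8 stromal, 1 of 3 immune and 2 of 4 endothelial genes reached 20. Their summed signals with DHT and in controls were 33.7 to 64.8 and 29.3 to 53.4 for basal, 254 to 349 and 324 to 361 for neuroendocrine, 554 to 626 and 567 to 631 for stromal, 13.6 to 37.5 and 32.2 to 60.9 for immune, and 206 to 274 and 210 to 221 for endothelial markers. A single member of these 5 lists passed, the stromal collagen gene COL1A1, which fell to 132 ± 20.7 with DHT, against 198 ± 22.7 in controls (-0.54; limma adjusted p = 0.0166). It missed without control replicate 1 or DHT replicate 2 (limma adjusted p = 0.0636 and 0.0632) and as the mean of its probe sets (-0.30; limma adjusted p = 0.323). The stromal gene VIM had 259 ± 17.3 with DHT and 205 ± 31.0 in controls and did not pass (0.32; limma adjusted p = 0.0862). The part of these cell types in the results was not tested.

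**Figure D1:**
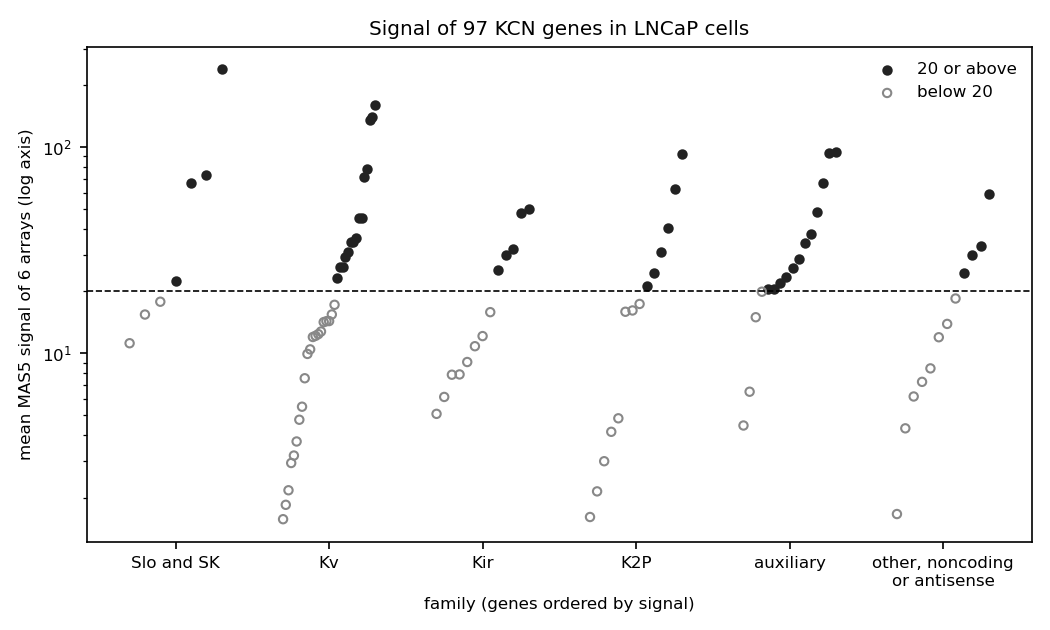
Mean MAS5 signal over 6 arrays (log axis) of each of 97 KCN genes by family, with the dashed line at 20. Filled points are the 46 genes at or above 20 and open points the 51 below it, and signals of different genes are not comparable as transcript amounts.

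Between DHT and control cultures, 4 of the 46 KCN genes differed at a limma adjusted p of 0.05 over all 13728 genes tested. KCNMA1 rose, and KCNH8, KCNU1 and KCNRG fell. That is 8.70% of the tested KCN genes, where 13.9% of all tested genes passed, 7.42% as higher and 6.46% as lower. The median log2 difference of the 46 genes was 0.04, and that of all tested genes 0.02. With DHT 24 had a positive and 22 a negative difference. In bulk RNA, a change in the number of cells carrying a transcript and a change in RNA per cell cannot be told apart. Scaling the arrays to their hybridisation spikes in place of the deposited scaling moved the median of all genes to -0.45, and 1 KCN gene, KCNMA1, then passed as higher and 18 as lower, with 55.7% of all genes passing. With equal array medians 40.05% of the calls among all genes were higher, against 53.5% with the deposited scaling, and the same 4 KCN genes passed.

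KCNMA1 and KCNH8 passed with every array left out in turn. KCNRG and KCNU1 passed with all arrays, but no promoter entry existed for KCNU1. The promoter sequences of the other 3 genes, which differ widely in base composition, are shown. They are the 250 bases before the annotated start in RefSeq, build GRCh38.p14, 5′ to 3′ on the strand of the gene, with each CpG in capitals: chr10:77637809-77638058 on the minus strand for KCNMA1, chr3:19148260-19148509 on the plus strand for KCNH8 and chr13:50015194-50015443 on the plus strand for KCNRG.
KCNMA1: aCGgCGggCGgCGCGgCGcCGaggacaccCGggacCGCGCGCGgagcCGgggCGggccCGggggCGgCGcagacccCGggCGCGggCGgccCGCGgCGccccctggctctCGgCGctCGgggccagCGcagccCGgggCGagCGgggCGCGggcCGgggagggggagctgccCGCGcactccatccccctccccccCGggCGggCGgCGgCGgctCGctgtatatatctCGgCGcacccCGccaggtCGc
KCNH8: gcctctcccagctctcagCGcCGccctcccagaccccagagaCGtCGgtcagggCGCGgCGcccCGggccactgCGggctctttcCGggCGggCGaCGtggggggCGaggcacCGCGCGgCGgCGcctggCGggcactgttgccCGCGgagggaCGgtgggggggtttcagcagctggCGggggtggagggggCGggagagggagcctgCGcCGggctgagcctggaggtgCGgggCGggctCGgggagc
KCNRG: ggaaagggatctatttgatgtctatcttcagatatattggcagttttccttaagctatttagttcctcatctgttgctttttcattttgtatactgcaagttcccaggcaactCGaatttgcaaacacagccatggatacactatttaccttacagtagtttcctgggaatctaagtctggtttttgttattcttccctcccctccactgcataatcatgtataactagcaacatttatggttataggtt
These stretches hold 46, 30 and 1 CpG, with 85.6%, 79.2% and 37.2% G and C. A promoter entry existed for 75 KCN genes. The median was 24 CpG for the 31 of them at a signal of 20 or above and 9.5 for the 44 below it, with 11 over 35116 promoters of the same length, given as a description without a test. The motif AGAACA, the core of androgen and glucocorticoid response elements, was searched on both strands (TGTTCT on the other). It was found in 3 of the 75 KCN stretches (KCNIP2-AS1, KCNE1 and KCNJ1), or 4%, and in 12.4% of all 35116 promoters. Each KCN gene was counted by 1 entry, while the 35116 were not reduced to 1 per gene. The median G and C content was 68.8% for KCN genes at 20 or above, 63.8% for those below and 58% over all promoters. The part of base composition in the motif shares was not tested. None of the 3 printed stretches holds it, which says nothing about sites elsewhere.

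KCNMA1 encodes the pore-forming subunit of the BK channel. Its signal (probe set 221584_s_at) was 407, 280 and 354 in the DHT cultures, against 112, 154 and 116 in the controls. Every DHT culture lay above every control. The means were 347 ± 63.8 with DHT and 128 ± 23.1 in controls (SD, n = 3 each), a 2.72-fold difference, with a log2 difference of 1.34 ± 0.15 (SE; 95% interval 1.02 to 1.65; limma adjusted p = 0.000169). Among all 13728 tested genes it ranked 20 by size of rise. It also passed when any single array was left out, with log2 differences of 1.22 to 1.47 (limma adjusted p = 0.000226 to 0.0016). The 3' to 5' signal ratio of the control probe sets, a sign of RNA integrity, was 1.77 ± 0.07 with DHT and 1.37 ± 0.05 in controls for ACTB, and 1.06 ± 0.05 with DHT and 0.904 ± 0.044 in controls for GAPDH (SD, n = 3 each). Both differences had a two-sided exact permutation p of 0.1, the smallest that 3 against 3 arrays allow, and their part in the KCN results was not tested.

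The annotation gives KCNMA1 alone to 4 probe sets, and they did not all move. The probe set 221583_s_at had signals of 69.7, 63.3 and 83.1 with DHT and 39.3, 33.0 and 31.5 in controls, and it passed as well (log2 difference 0.80 ± 0.17 SE; limma adjusted p = 0.00907 over 25725 probe sets). The groups did not overlap in either of these probe sets. A dimmer one, 228414_at, gave 19.8, 20.5 and 31.8 with DHT and 24.2, 17.4 and 19.2 in controls, a log2 difference of 0.13 ± 0.24 (95% interval -0.38 to 0.65; limma adjusted p = 0.777 over probe sets). The last, 214921_at, gave 7.48, 5.28 and 8.56 with DHT and 5.29, 24.2 and 4.26 in controls, below the signal of 20 in the mean of all arrays. When the gene was read as the mean of its 4 probe sets on the log2 scale, its difference was 0.52 and it missed the threshold (limma adjusted p = 0.0532). The sources used here do not say which transcript forms each probe set reads.

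**Figure D2:**
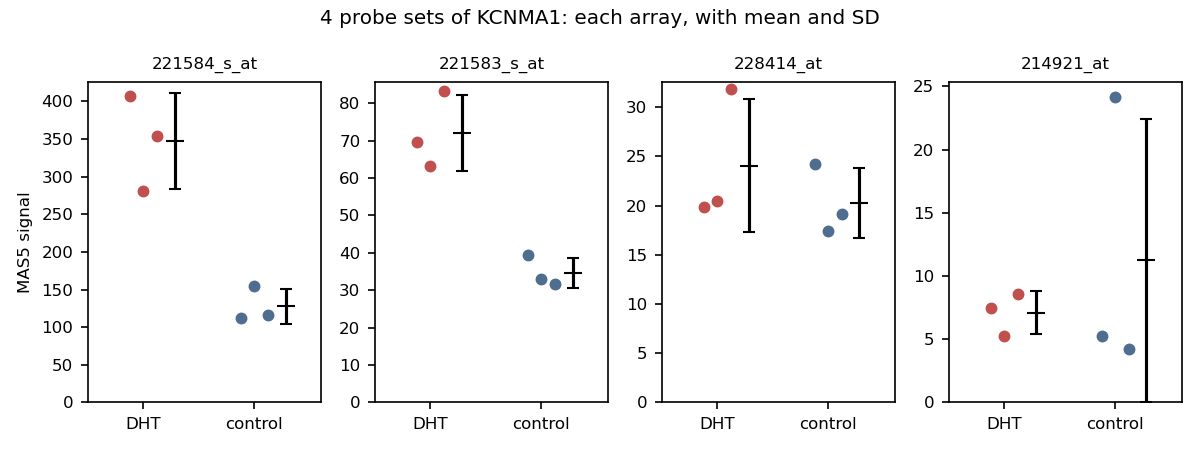
MAS5 signal of the 4 probe sets naming KCNMA1 alone in each of 3 DHT and 3 control arrays, with mean and SD (bars), each panel on its own axis from 0. In the brightest 2 panels all DHT points lie above all control points, and in the other 2 the groups overlap.

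The long noncoding RNA KCNMA1-AS1, annotated antisense to KCNMA1, had signals of 32.0, 61.9 and 40.6 with DHT and 22.4, 33.2 and 8.14 in controls. The groups overlapped in a single pair of values. Its log2 difference of 0.74 ± 0.29 did not pass (95% interval 0.10 to 1.37; limma adjusted p = 0.124). The sources used here do not give the strand that each probe set reads, so signal from KCNMA1 itself cannot be told apart from it.

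Of the other calcium-, sodium- or pH-gated channels, KCNN1, KCNU1 and KCNT1 reached a signal of 20, and KCNN3, KCNT2 and KCNN4 did not (mean signals 11.2 to 17.8). KCNU1, a pH-gated relative of KCNMA1 known from sperm, had signals of 5.79, 59.4 and 48.6 with DHT and 87.8, 101 and 100 in controls. All DHT values were below the controls, and DHT replicate 1 was far below the other 2. The means were 37.9 ± 28.4 with DHT and 96.2 ± 7.32 in controls (SD, n = 3 each), and the log2 difference was -1.24 ± 0.36 (SE; 95% interval -2.04 to -0.44; limma adjusted p = 0.0426). Without DHT replicate 1 it was -0.68 and still passed (limma adjusted p = 0.0233), but it did not pass without control replicate 1, 2 or 3 (limma adjusted p = 0.0818, 0.101 and 0.12), nor with a pseudocount of 1 or without the intensity trend (limma adjusted p = 0.0865 and 0.144). KCNN1, a small-conductance channel gated by calcium through calmodulin, had 74.3, 45.7 and 79.0 with DHT and 74.8, 86.9 and 77.7 in controls, with a log2 difference of -0.24 (95% interval -0.63 to 0.15). The sodium-activated KCNT1 had -0.36 (limma adjusted p = 0.415).

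Kv genes made up 35 of the members, and 15 reached a signal of 20. Of these, 1 fell and none rose, and the median log2 difference was 0.16. That is 6.67% passing, against 13.9% of all tested genes, 6.46% of them as lower. The same shares of all genes stand beside the counts of the families that follow. KCNH8, a member of the ether-a-go-go family, had signals of 79.9, 94.2 and 120 with DHT, against 139, 200 and 182 in controls. No DHT culture reached the lowest control. The means were 98.0 ± 20.3 with DHT and 174 ± 31.1 in controls, a log2 difference of -0.73 ± 0.16 (SE; 95% interval -1.08 to -0.39; limma adjusted p = 0.01). Its fall passed when any single array was left out, at -0.87 to -0.62 (limma adjusted p = 0.00604 to 0.0451). It missed without the intensity trend of the variance (limma adjusted p = 0.0563). KCNH8 has 1 single-gene probe set, so no other reading of it was available.

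With the deposited scaling, the other Kv genes with strong probe sets differed little between the groups. KCND3, a channel of the fast transient outward current, had 142, 168 and 162 with DHT and 155, 170 and 157 in controls. Its log2 difference was -0.03, with a 95% interval of -0.26 to 0.20. With spike scaling KCND3 passed as lower (-0.53, limma adjusted p = 0.00512). KCNH2, the channel of the rapid delayed rectifier current of the heart, had 157, 124 and 170 with DHT and 123, 138 and 124 in controls (0.20; 95% interval -0.08 to 0.48). Both groups overlapped for each of these genes. KCNS1 and KCNS3 encode silent subunits, which form channels only together with other Kv subunits. KCNS1 had 94.3, 79.3 and 81.3 with DHT and 72.2, 89.1 and 55.0 in controls (log2 difference 0.21). KCNS3 had 75.9, 82.7 and 69.4 with DHT and 65.3, 67.4 and 66.0 in controls, without overlap, but its log2 difference of 0.16 did not pass (limma adjusted p = 0.513).

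Dimmer Kv genes with sizeable differences missed the threshold. KCNQ1, a delayed rectifier subunit of heart and epithelia, had 30.6, 3.49 and 14.8 with DHT and 32.4, 31.2 and 45.0 in controls (log2 difference -0.77; limma adjusted p = 0.135), and its other probe set above 20 had 0.30. The silent subunit gene KCNG1 had 19.6, 28.6 and 47.4 with DHT and 75.1, 43.7 and 58.2 in controls (-0.67; limma adjusted p = 0.0976). KCNC4, a fast-inactivating channel, had 34.8, 24.8 and 16.4 with DHT and 40.6, 51.5 and 38.6 in controls (-0.54; limma adjusted p = 0.144). Its other probe sets, both below 20, had 0.23 and 0.47, and the mean of its probe sets gave 0.05. In the probe sets read as the gene, KCNQ1, KCNG1 and KCNC4 had lower means with DHT, and the groups overlapped only for KCNG1. KCNQ3, a subunit of the M current that damps neuronal firing, had 67.0, 32.6 and 72.9 with DHT and 37.3, 33.3 and 29.8 in controls (0.53; limma adjusted p = 0.179). The silent subunit gene KCNV1 had 37.5, 24.8 and 36.2 with DHT and 19.5, 32.6 and 6.33 in controls (0.52; limma adjusted p = 0.295). In KCNQ3 only DHT replicate 2 lay within the control range. Single arrays decided such cases: KCNQ1 passed without DHT replicate 1 (limma adjusted p = 0.048), KCNQ3 without DHT replicate 2 (0.0297) and KCNG1 without DHT replicate 3 (0.0434). The remaining tested Kv genes were KCNH7, KCNS2, KCNG3, KCNA1 and KCNB2, at -0.50 to 0.36 with none passing. Another KCNS2 probe set above 20 had -0.56 (limma adjusted p = 0.186 over probe sets), where the one read as the gene had 0.20. Other KCNQ3 probe sets above 20 had -0.06 and 0.41. Of 16 KCN genes with more than 1 probe set at or above 20, 7 had the same sign in all of these. Below a signal of 20, at 1.57 to 17.2, were KCNQ5, KCNG4, KCNH4, KCNC1, KCNH3, KCNH5, KCNH6, KCNA6, KCND2, KCNV2, KCNF1, KCNA4, KCNC2, KCNA10, KCNA3, KCND1, KCNH1, KCNA5, KCNA7 and KCNG2.

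**Figure D3:**
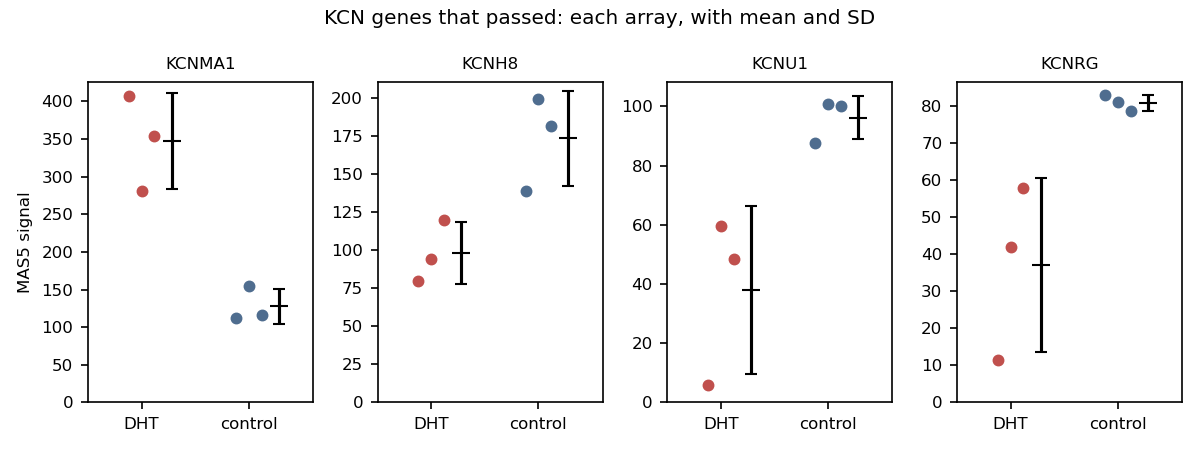
MAS5 signal of KCNMA1, KCNH8, KCNU1 and KCNRG in each of 3 DHT and 3 control arrays, with mean and SD (bars), each panel on its own axis from 0. KCNMA1 is higher in all DHT arrays, with DHT replicate 1 highest. The other 3 genes are lower in all DHT arrays, each with DHT replicate 1 lowest.

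Inward rectifiers showed no change that passed. Of 13 Kir genes, KCNJ15, KCNJ2, KCNJ5, KCNJ14 and KCNJ11 reached 20, with log2 differences of -0.04 to 0.36 and a median of 0.29. KCNJ2, which stabilises the resting potential of muscle cells, had 59.6, 43.3 and 49.4 with DHT and 33.5, 45.7 and 54.1 in controls (95% interval -0.27 to 0.57). KCNJ11, the pore of the ATP-sensitive channel, had 15.5, 31.2 and 25.7 with DHT and 43.5, 15.4 and 20.1 in controls (95% interval -0.68 to 0.59). The groups overlapped for both. KCNJ4, KCNJ8, KCNJ9, KCNJ6, KCNJ10, KCNJ16, KCNJ1 and KCNJ13 lay at 5.09 to 15.8.

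Among the K2P leak channels, 6 of 14 reached 20 and none passed at the level of the gene, with a median log2 difference of -0.13. KCNK1 had 93.5, 55.3 and 84.4 with DHT and 135, 77.8 and 109 in controls. The groups overlapped, and the log2 difference of -0.39 did not pass (95% interval -0.83 to 0.05; limma adjusted p = 0.243). A dimmer KCNK1 probe set, 204678_s_at, had 11.0, 23.7 and 4.43 with DHT and 37.0, 49.9 and 34.2 in controls, without overlap. It was lower with DHT (95% interval of the log2 difference -1.60 to -0.40; limma adjusted p = 0.035 over probe sets). Its mean was 13.0 with DHT, itself below 20, and 40.4 in controls. KCNK5, a channel opened by alkaline pH and known from kidney, had 41.5, 44.0 and 28.7 with DHT and 27.0, 26.4 and 17.8 in controls, again without overlap, but its log2 difference of 0.44 did not pass (limma adjusted p = 0.233). KCNK17, KCNK3, KCNK6 and KCNK16 lay at -0.22 to 0.21. The other K2P genes, KCNK10, KCNK9, KCNK13, KCNK2, KCNK4, KCNK15, KCNK7 and KCNK12, had signals of 1.61 to 17.3.

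Auxiliary subunits reached 20 in 12 of 16 genes, and none passed, with a median log2 difference of 0.08. The BK beta subunits set the calcium sensitivity and inactivation of the channel that KCNMA1 forms. KCNMB4 had 71.9, 77.3 and 134 with DHT and 88.4, 96.03 and 97.2 in controls, with a log2 difference of -0.03 (95% interval -0.45 to 0.38). KCNMB1 had 61.7, 45.8 and 43.6 with DHT and 43.3, 35.5 and 62.0 in controls (0.09; 95% interval -0.36 to 0.53). KCNMB3 had 36.9, 38.5 and 38.2 with DHT and 36.5, 46.6 and 30.2 in controls (0.01; 95% interval -0.41 to 0.44). These 3 intervals lie wholly below that of the brightest KCNMA1 probe set, although the difference between the genes was not tested. The interval of the KCNMA1 probe set 221583_s_at, 0.43 to 1.16, overlaps that of KCNMB1. KCNMB2, near the limit of 20, had -0.26 (95% interval -0.89 to 0.38).

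KCNAB2, a cytoplasmic beta subunit of Kv channels related to aldo-keto reductases, had 124, 110 and 80.8 with DHT and 79.5, 105 and 61.0 in controls. Its log2 difference of 0.31 did not pass (limma adjusted p = 0.321), and the other probe set above 20 had -0.31. KCNE3, a single-pass subunit that holds KCNQ1 open in epithelia, had 43.8, 47.7 and 29.8 with DHT and 29.7, 50.5 and 3.89 in controls (0.51; 95% interval -0.30 to 1.32). Without control replicate 3, the lowest of the 6 values, the difference was 0.02. KCNIP2, KCNAB3, KCNIP3, KCNE4, KCNE1 and KCNIP4 lay at -0.37 to 0.28. KCNIP1, KCNAB1, KCNE5 and KCNE2 had mean signals of 4.47 to 19.9.

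Of 12 members outside these families, KCNRG, KCNMA1-AS1, KCNIP2-AS1 and KCNQ1OT1 reached 20. KCNRG encodes a soluble protein with a tetramerisation domain like that of Kv channels, known to interfere with their assembly. Its signals were 11.6, 42.0 and 57.8 with DHT and 83.0, 81.1 and 78.6 in controls. The controls lay close together and all DHT values below them, with DHT replicate 1 lowest, as for KCNU1 and KCNH8. The log2 difference of KCNRG was -0.98 ± 0.29 (SE; 95% interval -1.63 to -0.34; limma adjusted p = 0.0462), and it was -0.57 without DHT replicate 1 (limma adjusted p = 0.0648). Of the 6 settings with 1 array left out, KCNRG passed only without DHT replicate 3 (limma adjusted p = 0.0175), and the other 5 gave 0.0626 to 0.114. A probe set annotated to both KCNRG and TRIM13, 240288_at, had 22.3, 28.3 and 26.3 with DHT and 37.7, 39.0 and 38.0 in controls, without overlap and with a log2 difference of -0.38 that did not pass (limma adjusted p = 0.229 over probe sets). KCNIP2-AS1 (-0.44) and KCNQ1OT1 (-0.21), noncoding RNAs, did not pass. The antisense and noncoding genes KCNQ1-AS1, KCNMB2-AS1, KCNJ5-AS1, KCNH7-AS1, KCNJ2-AS1, KCNK15-AS1, KCNQ1DN and KCNK10-AS1 had signals of 1.66 to 18.4.

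**Figure D4:**
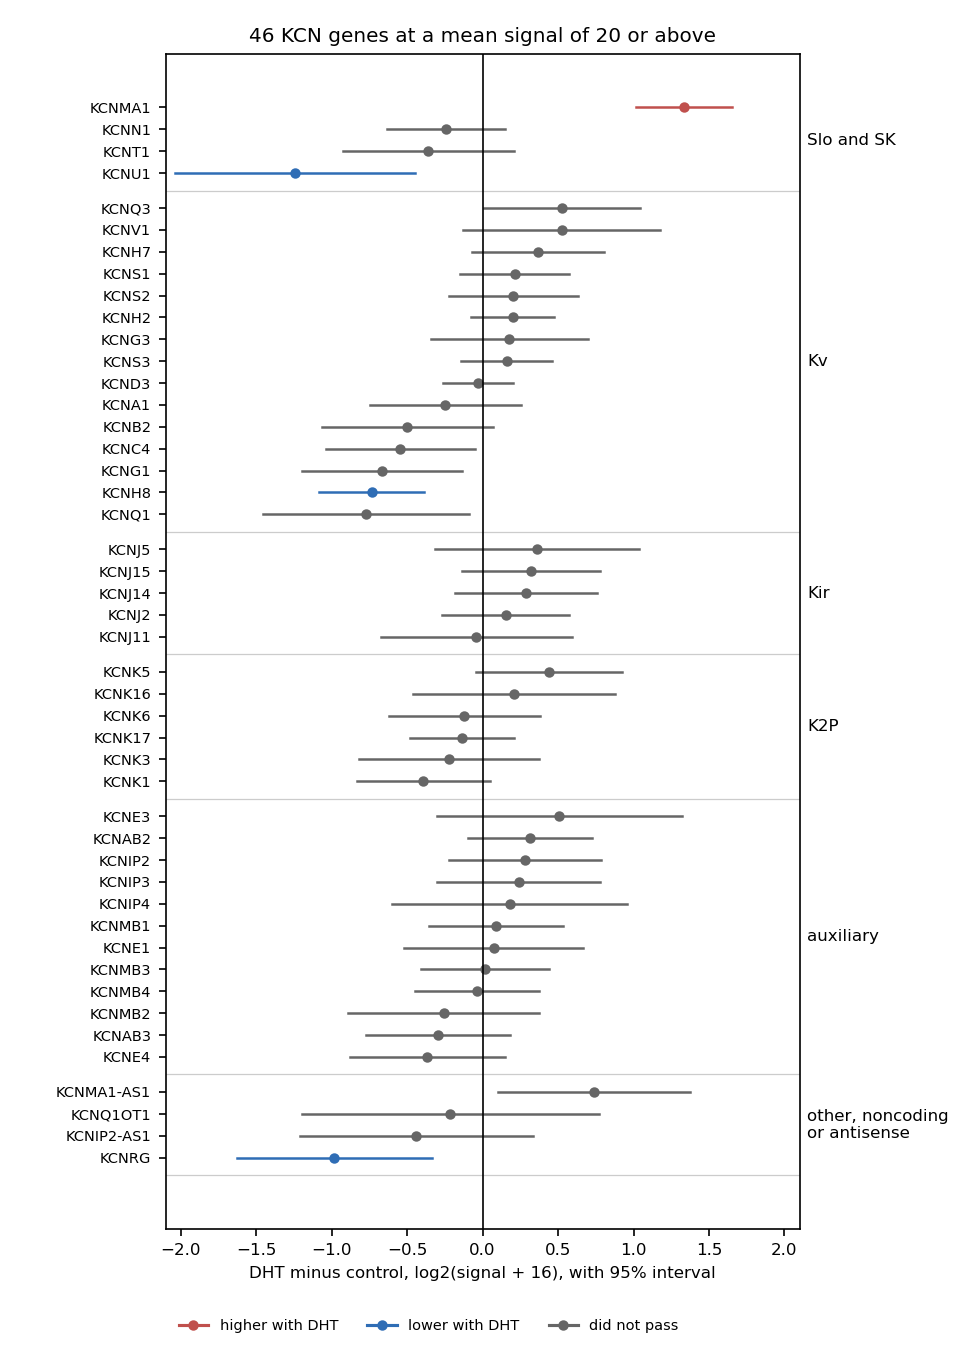
DHT minus control on log2(signal + 16) for the 46 KCN genes at a mean signal of 20 or above, grouped by family, with 95% intervals from limma (bars). The interval of KCNMA1 lies above 1, those of KCNH8, KCNU1 and KCNRG below 0, and none of the 42 grey genes passed. Intervals are per gene and not adjusted for the number of genes tested. Those of the grey genes KCNMA1-AS1, KCNQ3, KCNG1, KCNC4 and KCNQ1 also exclude 0.

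The precision of these differences followed the signal. For the 13 tested members with a mean signal over 60 the 95% interval reached a median of 0.36 on either side of the estimate, and for the 33 members between 20 and 60 it reached 0.54. Of the 42 members that did not pass, 31 had an interval inside -1 to 1 and 6 had one inside -0.5 to 0.5. In 8 tested members (KCNQ1, KCNV1, KCNE4, KCNB2, KCNT1, KCNMB2, KCNK16 and KCNIP4) the mean of 1 group was itself below 20. Closest to the limit were KCNMB2 (21.8), KCNK16 (21.3), KCNE1 (20.5) and KCNIP4 (20.4) above it and KCNIP1 (19.9) and KCNQ1-AS1 (18.4) below it. By the order of the arrays alone, 3 of 46 members (KCNMA1, KCNS3 and KCNK5) had all DHT values above all control values, which is 6.52%, against 17.2% of all tested genes. For 8 members, or 17.4%, all DHT values lay below all control values, against 14.4% of all tested genes. These were KCNH8, KCNU1, KCNRG, KCNC4, KCNAB3, KCNQ1, KCNE4 and KCNB2.

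**Figure D5:**
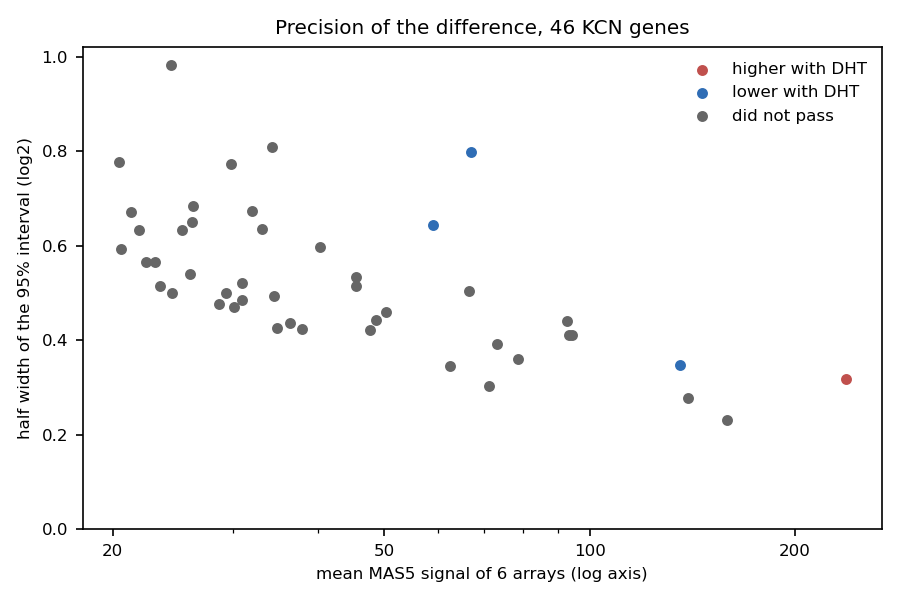
Distance from the log2 difference to either end of its 95% interval (vertical axis) against mean MAS5 signal of 6 arrays (log axis) for the 46 tested KCN genes, coloured by call. The distance shrinks with signal, and KCNU1 and KCNRG lie above other genes of like signal.

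Genes that act with potassium channels were followed through lists of partners, pumps and cotransporters. Of 9 listed genes of the BK channel and its beta and gamma subunits, 1 gamma subunit was not analysed here and 6 were tested. KCNMA1 alone passed, and the median log2 difference of the 6 was -0.01. LRRC52, a gamma subunit of BK-type channels, had a log2 difference of -0.17 (limma adjusted p = 0.734), and LRRC38 and LRRC55 lay below 20. DPP6, a partner of the KCND channels, had 48.8 ± 1.78 with DHT and 29.9 ± 3.51 in controls (0.50; limma adjusted p = 0.0943). None of the 3 tested partners with other names (DPP6, LRRC52 and ABCC9) passed. An unadjusted limma p under 0.05 was found for 1 of these 3, and for 3683 of all 13728 tested genes. Of 10 tested cation-chloride cotransporters and their kinases, 2 rose and 1 fell, with a median of -0.13. In this and the following lists the counts stand beside 13.9% of all tested genes that passed and a median of 0.02 over all of them. STK39, the kinase that activates the sodium-potassium-chloride cotransporter, rose to 482 ± 81.4 with DHT, against 252 ± 10.8 in controls (0.88 ± 0.11; limma adjusted p = 0.000478), but missed with spike scaling (0.35; limma adjusted p = 0.0661). SLC12A2, that cotransporter, fell to 359 ± 12.9 with DHT, against 522 ± 60.5 in controls (-0.52 ± 0.09; limma adjusted p = 0.00393). The kinase and the cotransporter it activates had differences of opposite sign. The related kinase gene OXSR1 rose by 0.27 (limma adjusted p = 0.0373), but did not pass when any 1 array was left out (limma adjusted p = 0.0621 to 0.111) and had -0.26 with spike scaling.

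Of 4 tested sodium-potassium pump genes only ATP1B3, a beta subunit, rose (0.24; limma adjusted p = 0.0334), and the median was 0.20. It did not pass without any array other than control replicate 1 (limma adjusted p = 0.0689 to 0.0992), and it was lower with DHT under spike scaling (-0.31; limma adjusted p = 0.0284). Of 11 tested genes of calcium entry, release and extrusion, ATP2B1, a calcium pump of the plasma membrane, fell to 861 ± 60.7 with DHT, against 1155 ± 120 in controls (-0.41 ± 0.09; limma adjusted p = 0.00935), and the other 10 did not pass; 1 of 11 is 9.09%, against 13.9% of all tested genes. It missed without the intensity trend (limma adjusted p = 0.0765). Among 22 tested calcium, sodium, chloride and HCN channel genes, 1 rose and 1 fell, or 9.09%, against 13.9% of all tested genes. CLCN3, a chloride-proton exchanger of endosomes, rose by 0.40 ± 0.07 (limma adjusted p = 0.00217), with -0.15 under spike scaling and 0.14 as the mean of its probe sets (limma adjusted p = 0.23). CACNA2D2, an auxiliary calcium channel subunit, fell by 0.58 on the log2 scale (limma adjusted p = 0.0461), and passed only without control replicate 3 when 1 array was left out. The other 5 such settings gave a limma adjusted p of 0.0736 to 0.15.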

How the data were processed

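RNA of 6 LNCaP cultures was measured on 1-colour Affymetrix arrays, as the labels state. The values analysed are the deposited signal intensities, computed with MAS5 according to the submitters' processing notes; no version is stated. MAS5 subtracts mismatch or estimated background, so dim values are noisy. Samples were grouped by their titles, and 0 columns were left unused. Of 54675 probe sets, 62 are controls, 41091 others name 1 gene in the platform annotation and 1801 name several. Each gene took the values of the probe set with the highest mean over 6 arrays, with _x_at probe sets only where no other exists. Gene symbols were looked up by identifier in a GRCh38.p14 gene table, which matched 41037 probe sets and changed 0 symbols.

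Genes with a mean signal of 20 or more were tested on log2(signal + 16) with limma 3.58.1 in R 4.3.3 (lmFit, eBayes with an intensity trend, 4 residual degrees of freedom), Benjamini-Hochberg adjusted over all genes tested. The number of arrays limits the precision. Arrays correlated at 0.972 to 0.979 within and 0.963 to 0.971 between groups. The fit was tested on simulated data. The KCN genes and the lists were chosen with earlier results of these data known. Named are the members that passed, the 10 brightest, the 6 largest and 6 smallest differences and all KCNMA1 probe sets; from each other list, the members that passed, up to 4 by adjusted p. KRT18, FOLH1, VIM, DPP6, LRRC52, further probe sets of KCNK1, KCNS2, KCNQ3 and KCNC4, and further interval examples were chosen after their values were seen. Alternatives were other pseudocounts, limits, scalings, variance models, gene summaries, a replicate block and leaving out each array.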

Additional observations from a re-analysis of the deposited data

How the results depend on the processing

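The number of KCN genes that passed was 4 in the reported fit. It was 2 with a pseudocount of 1 and with no filter on dim genes (1 higher and 1 lower each), 1 without the intensity trend (0 lower), 1 with probe sets averaged per gene (0 higher and 1 lower), 19 with spike scaling (18 lower), and 2 to 5 when 1 array was left out (1 to 2 higher, 1 to 4 lower). With a limit at a signal of 40, 20 KCN genes were left. KCNMA1 passed in 18 of 19 settings and missed with the mean of probe sets (0.52). KCNH8 passed in 18 of 19 and missed without the trend (-0.73; adjusted p = 0.0563). KCNU1 missed with a pseudocount of 1 (-1.83), and with no filter, without the trend and with the mean of probe sets (-1.24 each); without 1 array it ranged from -1.58 to -0.68. KCNRG missed in the same settings (-1.37 and -0.98), and ranged from -1.28 to -0.57 without 1 array. In the settings with the mean of probe sets, KCNU1, KCNRG and KCNH8 have 1 probe set each, so only the other genes' values differ. Among the KCN genes that passed as lower only with spike scaling were KCND3 (-0.53), KCNMB4 (-0.51), KCNK1 (-0.86) and KCNN1 (-0.69). Signs turned with spike scaling for OXSR1 (-0.26), ATP1B3 (-0.31), CLCN3 (-0.15) and KRT18 (-0.32). Over all genes, 1906 passed, and 1236 (495 higher) with equal medians, 7645 (143 higher, 7502 lower) with spike scaling, 905 (520 and 385) without the trend, 1130 (583 and 547) with the mean of probe sets, and 1259 to 1463 without 1 array (664 to 829 higher, 570 to 694 lower). Same-numbered arrays did not deviate together (correlations -0.00, -0.04 and 0.02), and with the replicate number as a block 1865 genes and the same 4 KCN genes passed, while OXSR1, CACNA2D2 and KRT18 did not (adjusted p = 0.06, 0.0529 and 0.0617). The causes of these changes were not tested.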
